A study of Mus musculus with 3 samples.

Results

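The cells described here were urothelial cells of the adult mouse bladder with high Upk3a, low Krt5 and no Krt20 UMI, chosen from single-cell RNA sequencing by the levels of 7 genes. A mouse cell had at least 90% of its UMIs (unique molecular identifiers, which count captured RNA molecules) on mouse genes, at least 500 mouse genes and under 20% mitochondrial UMIs. Of these, a member had at least 20 UMIs of Krt5, Krt7, Krt15, Ly6d and Wfdc2 together per 10000 mouse UMIs, at least 10 of Upk3a, under 10 of Krt5, and 0 UMIs of Krt20. The rule found 1318 cells among 7013 kept mouse cells of the bladder library, a share of 18.8% (exact Clopper-Pearson 95% interval 17.9 to 19.7%, counting error only), and 45.3% of the 2910 cells that passed its urothelial sum. The series held 23925 kept mouse cells in 3 libraries. The bladder library came from a pool of 8 bladders of wild-type C57BL/6 mice aged 8 to 9 weeks. The other libraries each came from a pool of 3 bladder assembloids, cultured tissues rebuilt from bladder cells, after 1 day and after 7 days of reconstitution. Neither the strain of the assembloid cells nor the way they were assembled is stated in the labels or the design text. Each group had 1 library, so nothing below was tested between groups, and every interval covers counting error only.

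The urothelium lines the bladder as basal cells on a basement membrane, intermediate cells above them and umbrella cells at the lumen. Basal cells make Krt5 and Trp63. Uroplakins are membrane proteins that form the plaques of the luminal surface, are made in increasing amounts towards the lumen, and keep the epithelium tight to urine, and Krt20 is a keratin of umbrella cells. Amphiregulin (Areg) is a ligand of the EGF receptor, involucrin (Ivl) is a cornified envelope precursor of stratified epithelia, and Krt23 is a type I keratin.

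The 3 libraries held 8642 to 9548 barcodes and 93560608 to 135955678 UMIs. The bladder members had a median of 19287.5 UMIs and 3802 genes per cell, with 5.87% mitochondrial UMIs. Classes of the same library served for comparison. Krt5-high cells had Krt5 at 10 per 10000 or more and no Krt20 UMI (187 cells, median 15554 UMIs). Krt20-high cells had Krt20 at 5 per 10000 or more and Krt5 under 10 (37 cells, median 17979 UMIs). Krt20-positive cells had at least 1 Krt20 UMI and Krt5 under 10 (1237 cells, median 25704 UMIs), and included the Krt20-high cells. Fibroblasts (2071 cells, median 5267 UMIs) had Dcn, Col1a1 and Col3a1 together at 20 per 10000 or more outside the urothelial sum.

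The 7-day library holds 1028 cells that pass the same rule, and these stood apart from the Krt5-high and low-Upk3a cells of their own library. Across genes, their log2 CPM (UMIs of a gene per 1000000 UMIs of the class) had a Pearson correlation of 0.97 with the bladder members, while the Krt20-positive, Krt5-high and low-Upk3a urothelial cells of the 7-day library had 0.94, 0.90 and 0.77. The surface antigen gene Ly6a was at 20.9 CPM in bladder members and 46.1 CPM in the 7-day cells of the rule. In the 7-day library it was at 40.001 CPM in Krt20-positive and 897 CPM in low-Upk3a cells. The 51 cells of the rule in the 1-day library had 779 CPM. Low Ly6a thus did not set the 7-day cells of the rule apart from the Krt20-positive cells of their library. The adult hemoglobin gene Hbb-bs, chosen for this check after its values were seen, was at 67.8 CPM in bladder members, 7.77 CPM in bladder Krt5-high cells and 209 CPM in bladder fibroblasts. In the 7-day library it was at 29.6 CPM in the cells of the rule, 64.1 CPM in Krt5-high, 51.0 CPM in low-Upk3a and 5.84 CPM in Krt20-positive cells and 33.1 CPM in fibroblasts, so it did not set the cells of the rule apart there. It was at 0 to 0.585 CPM in the 4 classes of the 1-day library that were looked at. The 7-day cells of the rule were thus closer to bladder members, by this correlation, than those 3 other urothelial classes of their library were. The rule favoured this order, because these cells passed the limits of the members and each other class failed at least 1 of them. The correlation also kept the genes of the rule. Whether the 7-day cells of the rule arose in the assembloids was not tested, and their values are given below as a comparison and not as an independent repeat. The bladder library shared 30 cell barcodes with the 7-day and 21 with the 1-day library, and 1 barcode was both a bladder member and a 7-day cell of the rule.

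RNA of other cell types was present in some members. The summed level of 6 fibroblast markers was 5.96 per 10000 in members, 0.558 in Krt5-high cells, 7.12 in Krt20-high cells and 229 in cells outside the urothelial sum. In 58 members (4.40%) Dcn, Col1a1 and Col3a1 together reached 20 per 10000, and 49 of these 58 were among the 104 members (7.89%) that Scrublet, a doublet caller, marked. Smooth muscle, endothelial and myeloid marker sums over members were 0.914, 0.506 and 0.150 per 10000. Of the lymphocyte markers Cd3d, Ms4a1 and Nkg7 were at 0 UMIs, as were the macrophage marker Adgre1 and the mesothelial markers Lrrn4 and Muc16. These cells were kept, because the rule does not remove them.

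The members passed as urothelium but the label of intermediate cells was not matched by a set of genes of their own. All 19 urothelial markers were at 20 CPM or more in members, and their sum was 353 per 10000 against 343 in Krt5-high and 397 in Krt20-high cells. These markers include Krt5, Krt7, Krt15, Ly6d, Wfdc2 and Upk3a, by which the rule chose the cells. Ly6d, Wfdc2 and Upk3a were at 56.6, 48.6 and 46.5 per 10000 in members. The sum was thus fixed in part by the rule, whose genes also cut the reference classes. The label's markers Upk3a, Ivl, Areg and Krt23 were each within 2-fold of their level in Krt5-high and in Krt20-high cells. Upk3a was used by the rule, and its CPM was 4650 in members, 3884 in Krt5-high, 5440 in Krt20-high and 5500 in Krt20-positive cells. Krt5, the basal keratin, had at least 1 UMI in 95.9% of members, with a median of 5.02 per 10000 and a highest value of 9.97, the limit of the rule. The members are therefore named by their rule below.

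The limit at 0 Krt20 UMIs depended on the depth of a cell. The members and the cells that met the rest of the rule but had a Krt20 UMI, 2535 cells in all, were ordered by UMI count and divided into 4 groups of equal size. The share with no Krt20 UMI was 72.9% in the shallowest group, then 61.0%, 45.4% and 28.7% in the deepest, while the Krt20 level was 0.552, 0.552, 0.691 and 0.641 per 10000. When 2512 of these cells were each thinned to 2500 UMIs, 87.8% had no Krt20 UMI. Cells with exactly 1 Krt20 UMI numbered 465 and had a median of 23390 UMIs. Their Ivl, Areg and Krt23 levels were 19.2, 4.86 and 3.096 per 10000, beside 18.5, 4.61 and 3.42 in members.

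**Figure D1:**
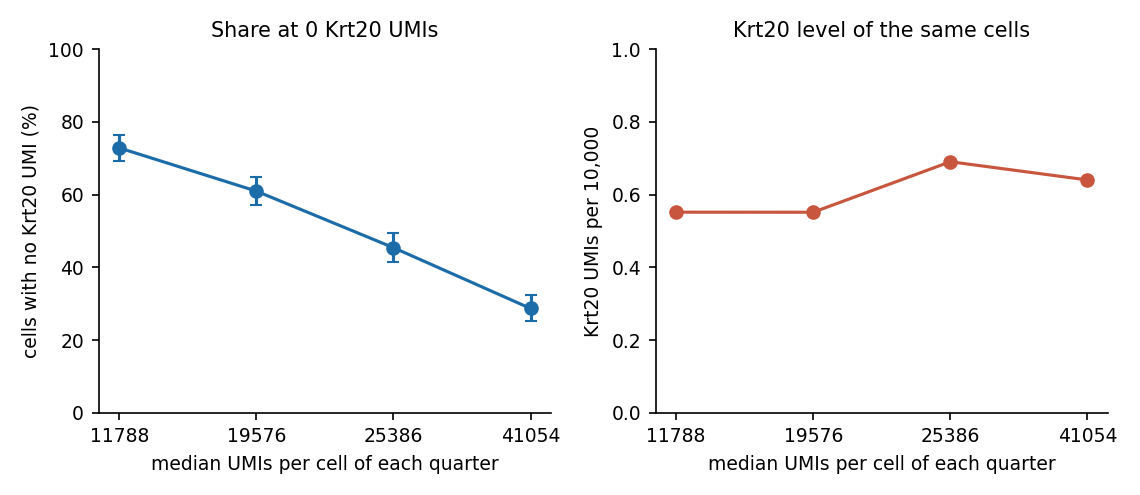
Share of cells with no Krt20 UMI (left, percent with exact 95% interval) and Krt20 level (right, UMIs per 10000) in 4 groups of bladder cells ordered by UMI count, against the median UMIs per cell. The share with no Krt20 UMI goes from 72.9% to 28.7% while the level stays between 0.552 and 0.691.

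The limit on Krt5 likewise lay within a gradient of Krt15 and Psca, but Ivl and Krt23 were level inside it and lower outside. The 72 members with Krt5 at 9 to 10 per 10000 had Krt15 at 24.0, Upk3a at 41.2 and Ivl at 17.3 per 10000. The 46 cells just outside, with Krt5 at 10 to 11, had Krt15 at 26.9, Upk3a at 41.9 and Ivl at 13.9. Over 6 bins of Krt5 that run through both classes, Krt15, a keratin of basal layers, was at 8.56, 12.9, 16.5, 22.4, 28.1 and 39.3 per 10000. Psca, a cell surface antigen of urothelium, went the other way, at 13.97, 12.02, 10.05, 7.24, 5.60 and 3.79. Over the same bins Ivl was at 18.6, 18.7, 18.2, 18.7, 14.9 and 13.0. Krt23 was at 3.50, 3.36, 3.35, 3.59, 2.485 and 1.81, and Areg at 5.68, 4.51, 4.57, 3.88, 2.38 and 2.91. Ivl and Krt23 thus changed little below Krt5 at 10 per 10000 and were lower above it. The median UMIs over these bins were 18549, 20245, 19227, 18960, 16722 and 13703, so depth was also lower above the limit. The part of depth was not tested. The last bin, Krt5 at 15 or more, held 21 cells. For the limit on Upk3a, the 62 members at 10 to 15 per 10000 had Areg at 5.62 and Ivl at 16.1 per 10000, and the 35 cells just outside, at 5 to 10, had 3.97 and 10.7. Their median UMIs were 8823.5 and 6883.

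Areg, Ivl and Krt23 were spread unevenly over the members. The Areg level of a member ranged from 0 through a median of 0.891 to 111 per 10000, and the 10% of members with the highest level had at least 13.4. Ivl ranged from 0 through a median of 12.9 to 71.7 per 10000, with an upper 10% from 37.1. Krt23 ranged from 0 through 0.962 to 26.7 per 10000, with an upper 10% from 9.79. Ivl was thus present in most members, while Areg and Krt23 were at or near 0 in many and high in some.

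To compare shares of cells at 1 depth, each cell was thinned to 2500 UMIs, which left out 21 shallower members. Of 1297 members, 37.7% had an Areg UMI (35.1 to 40.4%, exact 95% interval), 87.2% had an Ivl UMI (85.3 to 89.0%) and 36.5% had a Krt23 UMI (33.8 to 39.2%). Without thinning the shares were 60.2%, 98.3% and 64.6%. In fibroblasts, which should lack these genes and give the level of free RNA, the thinned shares were 1.43%, 5.50% and 0.687% (1747 cells, 324 left out as shallower). Thinned shares were 25.9%, 84.5% and 24.7% in Krt5-high cells (174 cells, 13 left out) and 44.6%, 90.9% and 40.02% in Krt20-positive cells (1232 cells, 5 left out). In Krt20-high cells (33 cells, 4 left out) they were 36.4%, 81.8% and 33.3%. Each was below the share in members, with an interval that included it. The members thus lay between Krt5-high and Krt20-positive cells, but not between Krt5-high and Krt20-high cells, and above the free RNA level. The members' intervals overlapped those of Krt5-high cells for Ivl and those of Krt20-positive cells for Krt23. The median UMIs of Krt5-high cells, members and Krt20-positive cells, 15554, 19287.5 and 25704, had the same order as their shares. Thinned levels within members also differed with depth. Ivl was at 12.7 per 10000 in the 648 members of lower and 20.8 in the 649 of higher UMI count, and Krt23 at 2.49 and 3.83. Krt23 was at 4.32 in members below and 2.003 in those above the median mitochondrial share. The part of depth and mitochondrial share in the class order was not tested.

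**Figure D2:**
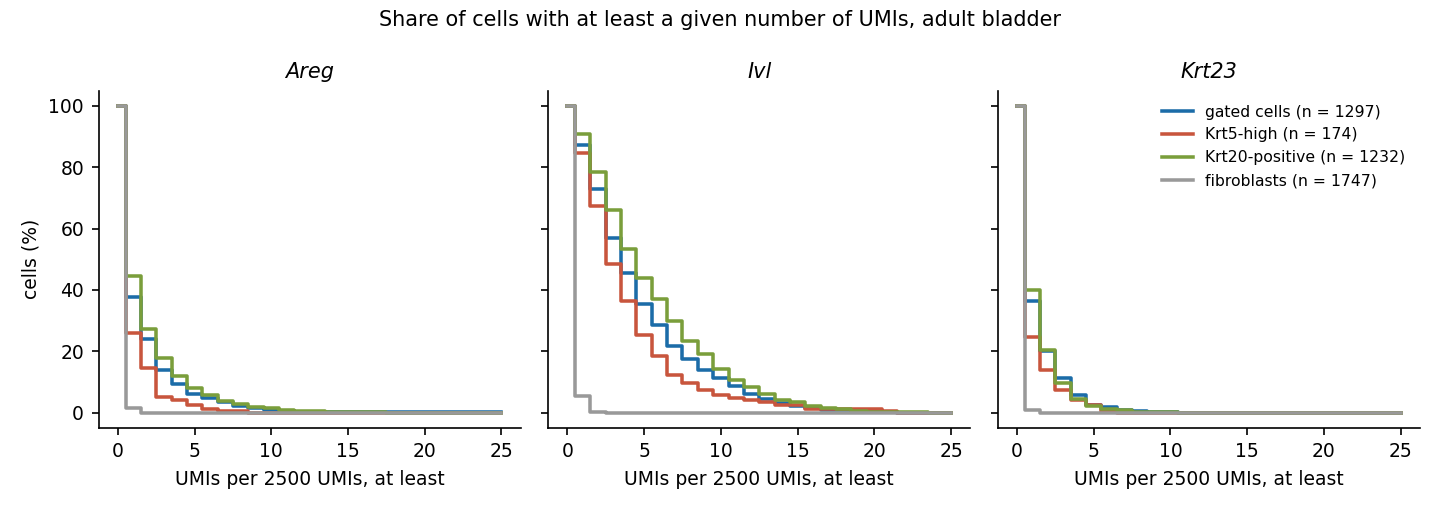
Share of bladder cells (percent) with at least the number of UMIs on the horizontal axis, for Areg, Ivl and Krt23, after thinning each cell to 2500 UMIs. For at least 1 Areg UMI the curves stand at 37.7% of gated cells (the members), 25.9% of Krt5-high, 44.6% of Krt20-positive cells and 1.43% of fibroblasts.

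The upper 10% of thinned members for each gene (130 cells) held 57.3% of all Areg UMIs, 52.5% of Krt23 UMIs and 30.6% of Ivl UMIs. For Krt5, whose range the rule restricts, the figure was 28.8%. The Fano factor, the variance between cells divided by the mean, was 4.39 for Areg, 3.53 for Ivl and 2.43 for Krt23. For Krt5 it was 1.10. Over the 1153 genes with at least 100 CPM its median was 1.07 and its 90th percentile 1.55, so the 3 genes had higher values than most. Both the Fano factor and the share in the upper 10% also depend on the level of a gene, and genes were not matched for level. Areg ranked 20th, Ivl 27th and Krt23 40th among them. Among the genes eligible to be named, the highest values belonged to Sprr1a, a cornified envelope gene, at 5.35 and the immediate early gene Fos at 5.28. They were followed by Gstm1 at 5.24 and Sprr2a3 at 4.98, then Areg, S100a6 at 4.14, Jun at 4.05, Krt15 at 3.95 and Upk3a at 3.73. Ivl and Actg1 at 3.03 were also among the 12 highest of the genes eligible to be named. Gstm1 and Sprr2a3 have near-identical relatives between which reads can be split, so their values are uncertain.

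Areg lies at chr5:91139599-91148432 on the plus strand, Ivl at chr3:92570902-92573735 on the minus strand and Krt23 at chr11:99477974-99493137 on the minus strand (GENCODE vM21, mm10). Because these genes and some of their companions, here Cldn4 and Sprr1a, varied together between members, the 250 bases before each RefSeq transcription start are shown, 5′ to 3′ on the gene's strand (GRCm38.p6). They are chr5:91139349-91139598 for Areg, chr3:92573736-92573985 for Ivl, chr11:99493121-99493370 for Krt23, chr5:134946935-134947184 for Cldn4 and chr3:92485882-92486131 for Sprr1a. Capitals mark matches, on either strand, to TGANTCA, the AP-1 motif bound by Fos and Jun dimers, or to TGACGTCA, the cyclic AMP response element.
Areg: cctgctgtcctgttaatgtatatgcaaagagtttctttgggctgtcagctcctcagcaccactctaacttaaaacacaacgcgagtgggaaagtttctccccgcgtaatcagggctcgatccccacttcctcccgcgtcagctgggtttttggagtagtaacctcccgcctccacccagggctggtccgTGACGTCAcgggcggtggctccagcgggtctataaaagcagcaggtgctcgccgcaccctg
Ivl: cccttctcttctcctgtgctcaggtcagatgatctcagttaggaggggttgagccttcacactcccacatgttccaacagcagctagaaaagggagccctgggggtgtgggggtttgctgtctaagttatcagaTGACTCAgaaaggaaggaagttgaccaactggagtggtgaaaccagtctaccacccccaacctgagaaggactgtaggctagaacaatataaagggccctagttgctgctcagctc
Krt23: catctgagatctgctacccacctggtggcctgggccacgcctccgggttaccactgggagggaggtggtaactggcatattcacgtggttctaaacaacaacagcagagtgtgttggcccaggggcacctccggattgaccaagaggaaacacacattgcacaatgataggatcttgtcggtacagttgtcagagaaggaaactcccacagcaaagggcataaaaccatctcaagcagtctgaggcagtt
Cldn4: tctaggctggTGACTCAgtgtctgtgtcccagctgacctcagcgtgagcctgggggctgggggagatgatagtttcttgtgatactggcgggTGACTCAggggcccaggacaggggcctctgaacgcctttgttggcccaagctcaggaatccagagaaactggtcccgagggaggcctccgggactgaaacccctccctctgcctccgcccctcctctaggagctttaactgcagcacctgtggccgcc
Sprr1a: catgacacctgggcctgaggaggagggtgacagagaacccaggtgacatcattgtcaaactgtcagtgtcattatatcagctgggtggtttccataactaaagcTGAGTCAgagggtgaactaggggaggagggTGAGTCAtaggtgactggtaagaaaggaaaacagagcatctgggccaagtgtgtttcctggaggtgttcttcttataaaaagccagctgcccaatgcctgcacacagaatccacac

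Ivl held 1 match to TGANTCA, 116 bases before the start, Cldn4 held 2 at 240 and 158 bases, and Sprr1a held 2 at 146 and 116 bases. Areg held 1 match to TGACGTCA, 61 bases before the start. Krt23 held neither, nor did Upk3a. Matches to TGANTCA occurred in 6.75% and to TGACGTCA in 1.55% of the 32851 promoters of the RefSeq table over the same length. The motifs cannot overlap in their letters. AACCGGTT (Grainyhead, 0.116% of promoters) and GGAATG (TEAD, 12.6%) were also searched and had no match in these 6 promoters. A match is a string of letters and not evidence of binding. Cldn4 and Sprr1a were picked from several companions, and Sprr1a ranked only 8th in correlation with Krt23. The companions Phlda1 and Hilpda were not searched, so the matches are not a count to set against the shares of all promoters.

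Areg, Ivl and Krt23 tended to be high in the same members. Between the 1297 thinned members, Pearson's r was 0.42 for Areg with Ivl, 0.32 for Areg with Krt23 and 0.41 for Ivl with Krt23. These are descriptions within 1 library, and the cells share its preparation. For comparison, the r of Areg with 1152 genes had a 95th percentile of 0.14, and for Ivl and Krt23 that percentile was 0.17 and 0.16. All 3 genes were seen in 285 members (22.0%), none in 126 (9.71%), and Ivl alone in 503 (38.8%). Krt23 was seen in 60.1% of the 489 Areg-positive and in 22.2% of the 808 Areg-negative members.

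Correlations were ranked only among the genes of at least 100 CPM eligible to be named. The leading companions of the 3 genes overlapped: Cldn4 and Phlda1 were among the 6 highest for each. With Areg, the 6 highest correlations were those of Ivl, Sprr1a (0.36), the tight junction claudin Cldn4 (0.34), Krt23, the lipid droplet gene Hilpda (0.32) and Phlda1 (0.30). With Ivl they were Sprr1a (0.44), Cldn4 (0.43), Areg, Krt23, Hilpda (0.40) and Phlda1 (0.40). With Krt23 they were cytoplasmic actin Actg1 (0.43), Ivl, Cldn4 (0.39), Phlda1 (0.39), the glutathione transferase Gsto1 (0.38) and stratifin, Sfn (0.37). Among these eligible genes, the lowest correlations of all 3 were with Fos, at -0.20 for Areg, -0.28 for Ivl and -0.22 for Krt23. Fos itself varied with Jun (0.57) and Fosb (0.38). The immediate early list as a whole did not share the course of Fos. Of its 16 measured genes, 9 correlated positively with each of the 3, with medians of 0.007, 0.04 and 0.06. The list of uroplakins had no positive correlation among its 5 measured genes with any of the 3, with medians of -0.05, -0.08 and -0.14.

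Members were binned by their thinned Areg count at 0, 1, 2 to 3, and 4 or more UMIs (808, 180, 189 and 120 cells). Ivl was at 11.4, 19.5, 27.4 and 31.8 per 10000 over these bins, and Krt23 at 1.72, 4.04, 5.54 and 7.77. Cldn4 was at 12.8, 19.6, 23.8 and 27.6, Sprr1a at 18.8, 33.1, 40.2 and 43.6, and Plaur, the urokinase receptor, at 0.743, 2.16, 2.73 and 3.20. The EGF receptor ligand Hbegf was at 2.81, 5.04, 5.31 and 7.53. Each of these genes was higher in every successive bin, but the counting intervals of neighbouring bins overlapped for Sprr1a, Plaur and Hbegf. Ivl, Krt23, Cldn4 and Sprr1a were named for their high correlation with Areg in these same cells, where Plaur ranked 8th. The rise over bins thus shows the same association in another form and is no separate support for it.

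Fos went the other way, at 20.3, 17.4, 11.7 and 6.93 per 10000, and Jun was at 17.9, 14.96, 11.5 and 10.4. Fos and Jun were among the lowest correlates of Areg in these same cells, and did not stand for the whole immediate early list, as given above. Upk3a was at 47.7, 41.7, 43.2 and 44.7, and Krt15 at 16.6, 15.9, 14.8 and 16.0, with no steady course. Upk1a was at 28.6, 25.8, 24.3 and 23.2. Depth and mitochondrial share moved with the bins to a smaller degree: the median UMIs before thinning were 18283.5, 20956.5, 22621 and 21210, and the median mitochondrial shares were 6.17%, 5.41%, 5.57% and 5.53%. Dcn, the fibroblast gene, was at 3.08 in the lowest and 1.00 in the highest bin.

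**Figure D3:**
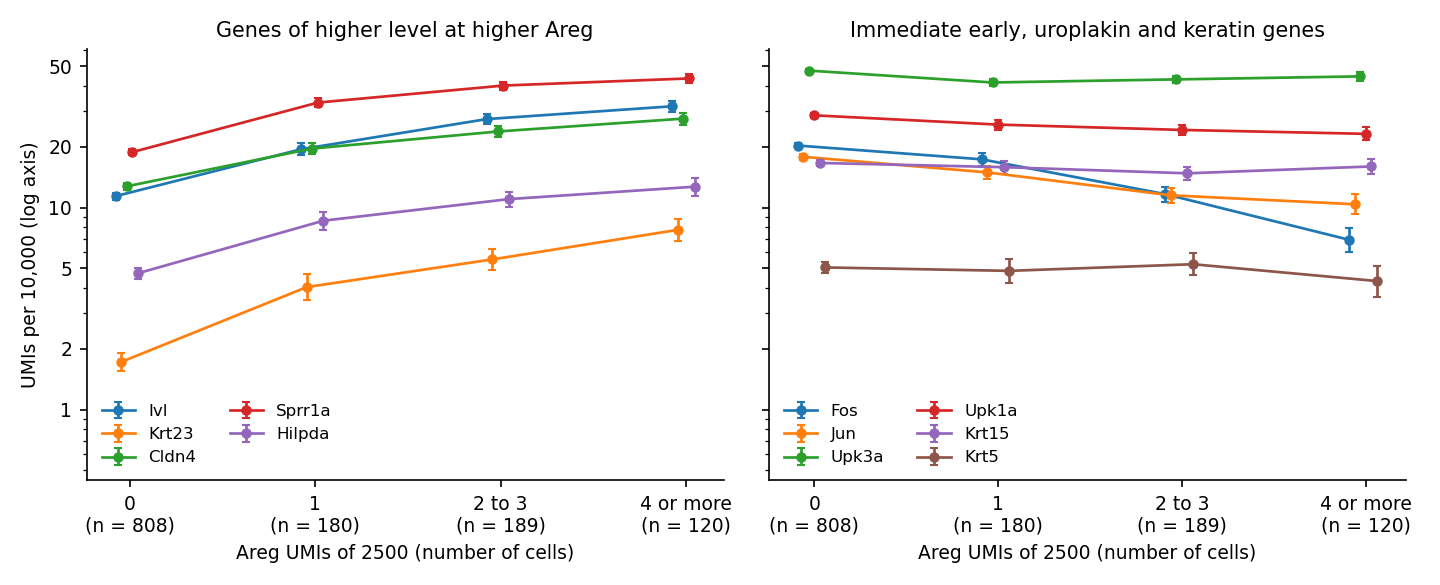
Levels of 11 genes (UMIs per 10000, log axis) in members grouped by their Areg UMIs after thinning to 2500, with exact 95% intervals for counting error and the number of cells under each bin. Ivl goes from 11.4 to 31.8 and Fos from 20.3 to 6.93, while Krt15 lies between 14.8 and 16.6.

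The association was seen when doubtful cells were left out and in the deeper and shallower members. Without the stromal-positive members (1240 cells) the 3 correlations, in the order Areg with Ivl, Areg with Krt23 and Ivl with Krt23, were 0.42, 0.33 and 0.42. Without the doublet calls (1196 cells) they were 0.42, 0.32 and 0.42. In the 648 members of lower UMI count they were 0.41, 0.33 and 0.42, and in the 649 of higher count 0.43, 0.31 and 0.38. Dividing the members at the median mitochondrial share gave 0.40, 0.31 and 0.35 below it and 0.44, 0.35 and 0.45 above it.

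Other urothelial cells of the bladder showed similar values. The same 3 correlations were 0.30, 0.28 and 0.44 in 174 Krt5-high cells and 0.44, 0.27 and 0.40 in 1232 Krt20-positive cells, but -0.01, -0.01 and 0.01 in 1747 fibroblasts, where the genes are close to 0. In 998 cells of the rule in the 7-day library they were 0.38, 0.38 and 0.46. In the same library they were 0.42, 0.42 and 0.33 in 237 Krt5-high cells and 0.46, 0.27 and 0.34 in 450 Krt20-positive cells. In 49 cells of the rule in the 1-day library they were -0.02, 0.02 and -0.18. In 503 low-Upk3a urothelial cells of the 7-day library they were 0.02, 0.10 and 0.02, and in 1123 such cells of the 1-day library 0.07, 0.05 and -0.01. Areg was sparse in these low-Upk3a cells, at 0.342 and 0.242 per 10000 beside 4.25 in thinned members. Krt23 was at 0.843 and 0.709 beside 3.16, and Ivl at 6.48 and 6.57 beside 16.7. Each pair holds Areg or Krt23, and weak correlations of sparse counts show little. In the 7-day Krt5-high cells Areg and Krt23 were at 1.38 and 1.49.

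**Figure D4:**
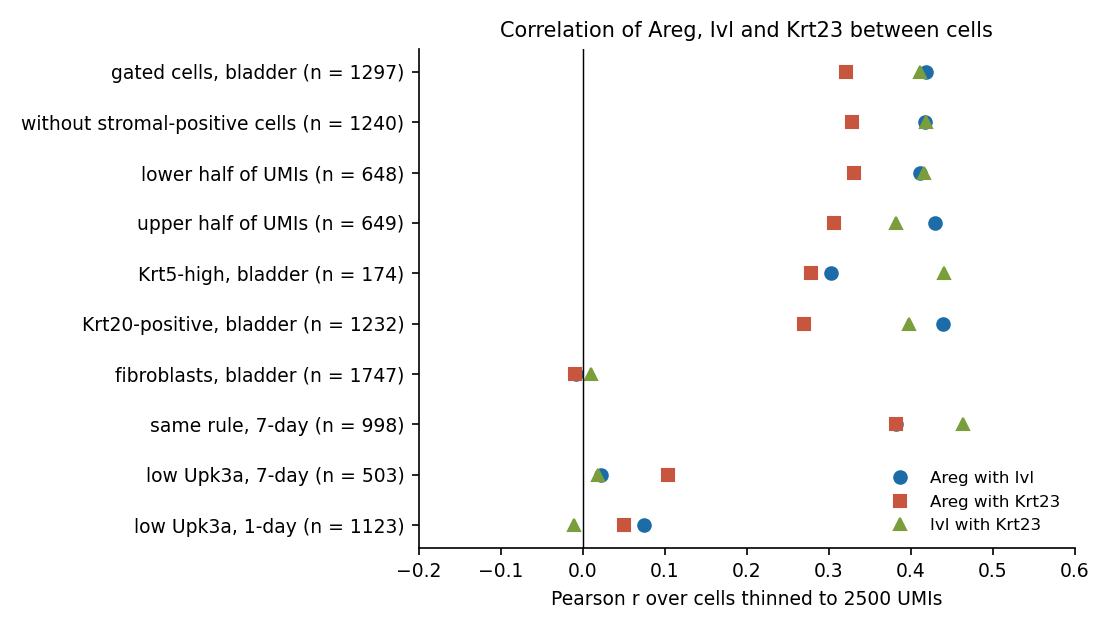
Pearson's r between cells thinned to 2500 UMIs for Areg with Ivl (circles), Areg with Krt23 (squares) and Ivl with Krt23 (triangles), in members, subsets of members and other classes, with the number of cells. Members sit at 0.42, 0.32 and 0.41, and bladder fibroblasts at -0.01, -0.01 and 0.01.

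A further gradient within members followed Krt15, a gene of the rule's sum, and was picked for description after its values were seen. Members were binned by thinned Krt15 counts of 0, 1 to 2, 3 to 6, and 7 or more UMIs (250, 343, 407 and 297 cells). Psca was at 15.3, 11.5, 8.34 and 6.195 per 10000, Upk3a at 56.6, 47.3, 42.0 and 40.8, and Upk1a at 33.8, 28.0, 25.3 and 22.9. Upk1b was at 15.6, 12.2, 9.80 and 9.14, and Upk2 at 7.28, 5.98, 4.85 and 4.50. The secreted protein gene Wfdc2, also of the rule's sum, was at 41.9, 47.0, 51.3 and 57.9. Ivl was at 16.7, 17.4, 17.3 and 15.3. These 4 uroplakin genes were thus lower in each successive Krt15 bin, while Ivl lay between 15.3 and 17.4. Krt23 was at 2.13 in the 250 members without a Krt15 UMI and 3.16 in all thinned members. Sprr1a, a companion of Areg and Ivl, had an r of -0.16 with Krt15. The gradient was thus not fully apart from the spread of Areg, Ivl and Krt23. Pearson's r of Krt15 was -0.28 with Psca, 0.24 with Igfbp2, which encodes a binding protein of insulin-like growth factors, and -0.03 with Ivl. In the 7-day cells of the rule r with Psca was -0.18 with a value near 0 for Ivl.

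Compared with Krt5-high cells of the same library, members had higher Psca and Fam25c by more than 2-fold and lower Jag2, Cyp2f2 and Trf. Areg, the 4 tested uroplakins, Trp63 and the other basal genes named below differed by less than 2-fold. Psca was at 1087 CPM in members and 519 CPM in Krt5-high cells, a log2 ratio of 1.07 (95% interval 0.99 to 1.14, with 0.5 counts added to each sum). Fam25c was at 155 and 66.4 CPM, a log2 ratio of 1.22 (1.01 to 1.44). Areg was at 461 and 255 CPM, a log2 ratio of 0.85 (0.74 to 0.96). Ivl was at 1854 and 1489 CPM (log2 ratio 0.32) and Krt23 at 342 and 244 CPM (0.48).

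A gene was counted as different where it had at least 20 CPM in the higher class, a ratio of at least 2-fold and an interval that excluded 1. The genes of the rule were left out. By this count 31 of 5070 genes were higher in members (0.611%) and 3 were lower (0.0592%). These are shares of all genes tested, and the classes were cut with genes of the same cells, so the counts describe and test nothing. Of the 31 genes, 24 were more than 5 times higher in cells outside the urothelial sum. They include the collagen gene Col1a1 at 143 against 8.83 CPM and Dcn at 169 against 15.9 CPM, beside the fibroblast marker sums given above. The part of those other cells was not tested. The other 7 were Hbb-bs, Scube2, Fam25c, the predicted gene Gm13398, Pard6b, Psca and Rab11fip5. Leaving out the stromal-positive cells, or the doublet calls, gave 17 higher genes each. Applying the rule to thinned cells gave 1 higher and none lower, and a Krt5-high class cut at 20 per 10000, with 8 cells, gave 124 and 225.

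The 3 lower genes were Jag2, a Notch ligand, at 11.03 against 30.01 CPM, Cyp2f2, a cytochrome P450 enzyme, at 12.3 against 33.5 CPM, and the transferrin gene Trf at 59.0 against 123 CPM. Among genes of at least 100 CPM eligible to be named, which leaves out genes more than 5 times higher in other cells such as Col1a1 and Dcn, the highest ratios after Fam25c and Psca were those of Flrt3 (log2 ratio 0.95), the ceramidase Acer2 (0.92), Areg, tissue plasminogen activator Plat (0.80), Cldn23 (0.79) and Trim25 (0.76). After Trf, the lowest were Aldh3a1 (-0.92), an aldehyde dehydrogenase, Txnip (-0.79), Peg3 (-0.72), Phlda3 (-0.59), Trp63 (-0.58), Lars2 (-0.58) and Igfbp2 (-0.54).

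By gene list, the median log2 ratio over all 5070 genes was -0.01. All 4 tested uroplakins were higher in members, none by 2-fold, with a median of 0.40: Upk2 at 0.54, Upk1b at 0.44, Upk1a at 0.36 and Upk3b at 0.27. Of 18 basal and hemidesmosome genes 13 were tested and none passed 2-fold, with a median of -0.34. They include integrin β4 (Itgb4, -0.76) and integrin α6 (Itga6, -0.58), which anchor basal cells to the basement membrane, and the cell adhesion receptor Bcam (-0.70). The simple keratins Krt8 and Krt18 were at 0.39 and 0.22, and Krt4, a keratin of stratified mucosa, at 0.68.

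The EGF family (6 of 14 tested, none past 2-fold, median 0.38) was led by Areg, the receptor inhibitor Errfi1 (0.64) and Hbegf (0.39). Cornified envelope genes (6 of 24 tested, none past 2-fold) had a median of 0.38, with Sprr1a at 0.51 and envoplakin, Evpl, at 0.48, but Sprr2f at -0.64. The Sprr2 genes are near-identical copies, so their values are uncertain. Tight junction genes (11 of 16 tested, none past 2-fold, median 0.21) included occludin, Ocln, at 0.41 and Cldn4 at 0.28. Cholesterol and fatty acid genes (14 of 18 tested, none past 2-fold, median 0.26) included Fdps at 0.64 and Idi1 at 0.51. Of 8 tested Notch genes only Jag2 passed, with Notch1 at -0.38. Among transport genes the urea transporter Slc14a1 was at 0.64, the potassium channel Kcnn4 at -0.91 and the water channel Aqp3 at -0.27. The proliferation gene Mki67 was at 1.10 CPM in members, and only 1 of 15 G2/M genes had enough counts to be tested.

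**Figure D5:**
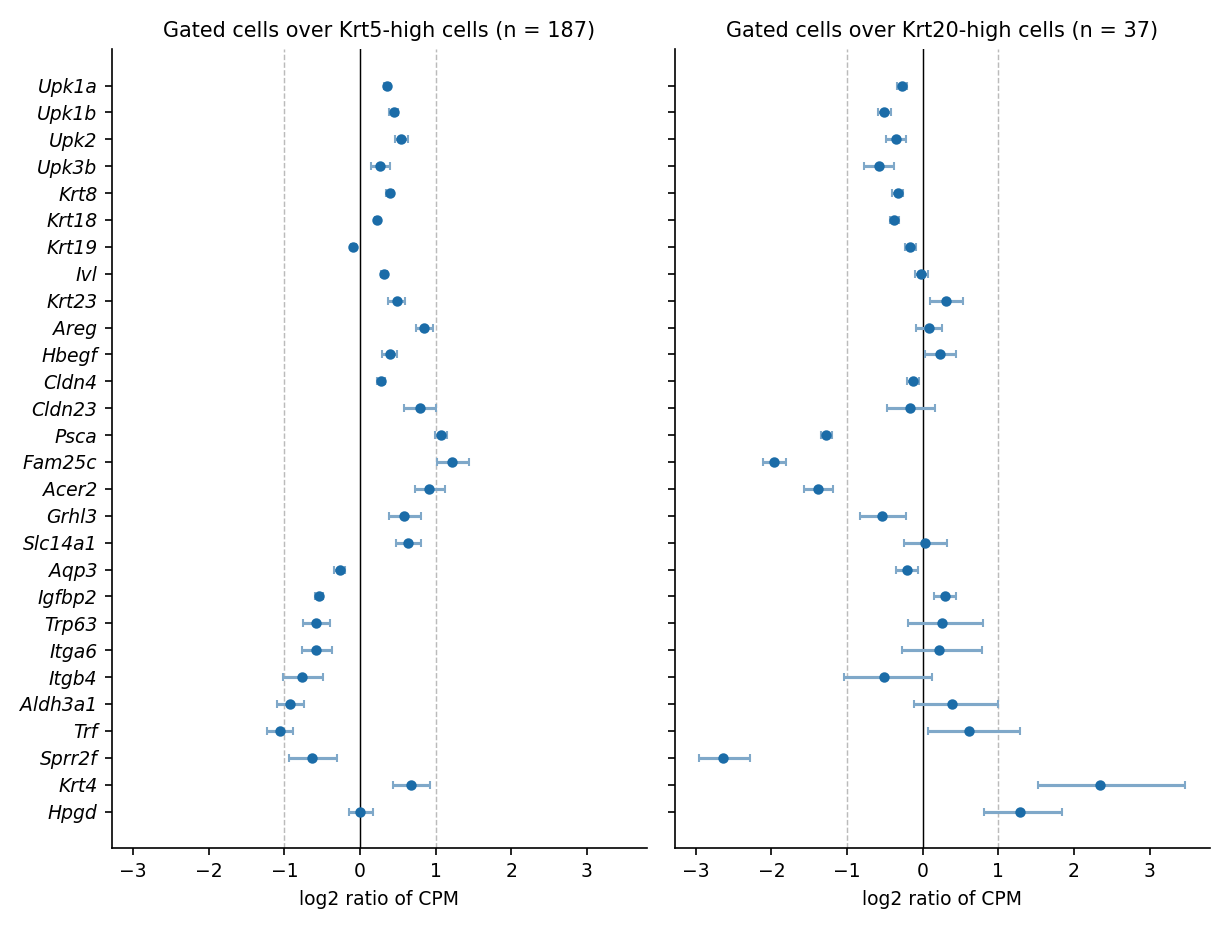
Log2 ratio of CPM, members over Krt5-high cells (left) and over Krt20-high cells (right), for 28 genes, with 95% counting intervals and dashed lines at 2-fold. Psca and Fam25c lie above Krt5-high cells by 1.07 and 1.22 and below Krt20-high cells by 1.27 and 1.97.

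Compared with the 37 Krt20-high cells, members had lower Psca, Fam25c and Sprr2f and higher Krt4 by more than 2-fold, while the tested uroplakins were within 2-fold. Psca was at 1087 CPM in members and 2628 CPM in Krt20-high cells, a log2 ratio of -1.27 (-1.34 to -1.20). Fam25c was at 155 and 606 CPM, a log2 ratio of -1.97 (-2.12 to -1.81). Sprr2f, one of the near-identical copies, was at 21.9 and 135 CPM (-2.64), and S100a1, a calcium-binding protein, at 118 and 345 CPM (-1.56). Krt4 was at 83.8 and 15.7 CPM, a log2 ratio of 2.34 (1.53 to 3.47). Areg (0.08, -0.09 to 0.26) and Ivl (-0.02, -0.10 to 0.07) had intervals that included 0, and Krt23 was at 0.31 (0.10 to 0.54).

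By the same count 29 of 5421 genes were higher in members (0.535%) and 150 were lower (2.77%). Of the lower genes 46 and of the higher genes 3 were more than 5 times higher in cells outside the urothelial sum. Among genes of at least 100 CPM eligible to be named, the highest ratios were those of Hpgd, the prostaglandin-degrading enzyme (1.28), thrombospondin Thbs1 (0.93), Fam207a (0.67), the carbonyl reductase Cbr2 (0.66), Ugt2b34 (0.55), Eif3m (0.55), Nono (0.54) and Nop53 (0.53). The lowest of the genes eligible to be named, beside those above, were Acer2 (-1.38), Fam3c (-1.32), Tspan6 (-0.9986) and adrenomedullin, Adm (-0.96), while genes more than 5 times higher in other cells, such as Fabp4 (-2.79) and Acta2 (-2.65), were left out. With 5 in place of 0.5 counts added the counts were 6 and 235, and with at least 100 CPM 1 and 16. Ribosomal protein genes took a median of 30.3% of UMIs in members and 24.3% in Krt20-high cells.

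By list, the median log2 ratio over all 5421 genes was -0.14. The 4 tested uroplakins had a median of -0.43, none past 2-fold, with Upk3b at -0.58 and Upk1b at -0.51. Of 11 heat shock genes 3 were lower by 2-fold, with a list median of -0.61: Hspa1a at 350 against 802 CPM, Hspa1b at 351 against 740 CPM, and Hsph1 at 33.3 against 81.9 CPM. Hspa1a and Hspa1b are near-identical copies. All 3 were more than 5 times higher in cells outside the urothelial sum, with Hspa1a at 3592 CPM in fibroblasts. Marker sums per 10000 in members and Krt20-high cells were 5.96 and 7.12 for fibroblasts, 0.914 and 4.02 for smooth muscle, 0.823 and 3.37 for pericytes, and 0.115 and 0.630 for glia. The part of RNA of these cell types in the heat shock difference was not tested. Of 20 tested detoxification genes 2 were higher in members, the quinone reductase Nqo1 (1.34) and Srxn1 (1.18), with a list median of 0.12. Antigen presentation genes (7 of 13 tested, 1 lower) had a median of -0.54, with B2m at -0.54.

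When all 1237 Krt20-positive cells served as the reference, most of this difference was gone. The count was 17 of 4923 genes higher in members (0.345%) and 4 lower (0.0813%). Of the 17, 16 were more than 5 times higher outside the urothelial sum, and the other was Krt4 (log2 ratio 1.29). The 4 lower genes were Fam25c (-1.03), Sprr2f (-1.02), Fabp4 and Rgs5, and the last of these was at 59.1 CPM in members, 133 CPM in Krt20-positive and 323 CPM in Krt20-high cells. The log2 CPM of members and Krt20-positive cells had a Pearson correlation of 0.99 across genes, which are not independent replicates. Psca (-0.61), Upk1b (-0.33) and Upk2 (-0.28) kept the sign they had against Krt20-high cells, and Krt15 was at 0.81.

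In the 7-day library, 70 of 5038 genes were higher (1.39%) and 2 lower (0.0397%) in cells of the rule than in bladder members. Of the 70, 67 were more than 5 times higher in other cells of the bladder library than in bladder members. Other cells of the 7-day library did not enter this figure, and some of the bladder values are near 0. Spp1 was at 111 CPM in the 7-day cells, 0 in bladder members and 4.31 CPM in bladder cells outside the urothelial sum. The lower genes included Hbb-bs. Areg was at 375 CPM (log2 ratio to bladder members -0.30), Ivl at 1555 CPM (-0.25), Krt23 at 276 CPM (-0.31), Psca at 1578 CPM (0.54) and Plaur at 83.4 CPM (-0.88). The thinned shares with an Areg, Ivl and Krt23 UMI were 36.4%, 85.7% and 33.9% of 998 cells (30 left out as shallower). Leaving out 7-day cells with a UMI of Ly6a, Ndufa4l2 or Ptges gave 41 different genes among 873 cells, against 72 in all. In the 1-day library the rule found 51 of 8538 cells, with Areg, Ivl and Krt23 in 18.4%, 73.5% and 14.3% of 49 thinned cells.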

How the data were processed

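Single cells of dissociated bladder and assembloids were captured with the 10x Genomics 3′ kit, version 3, per the labels' protocols. The deposited values are whole-number UMI counts, made by the authors with Cell Ranger 3.1.0 on a combined human and mouse gene set, per the file headers. The submitters' processing notes name GRCh38, mm10 and hg38. How cells were called, and from which annotation release, was not given in the sources used here.

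The members, the 25 gene lists and the comparisons were chosen with earlier results of these data known. UMI counts were summed per class and scaled to counts per 1000000 UMIs (CPM). Log2 ratios used 0.5 added counts and exact conditional Poisson 95% intervals, which cover counting error only. Shares had exact Clopper-Pearson intervals. For shares, Fano factors and correlations each cell was thinned without replacement to 2500 UMIs. With 1 library per group no test was possible. Doublets were called by Scrublet in scanpy 1.11.5 with default settings and kept, except in an alternative. The work used Python 3.11.15, numpy 2.4.6 and scipy 1.17.1. The ratio and interval code was tested on simulated data.

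Named genes were those of the rule, Areg, Ivl and Krt23, the 8 highest and 8 lowest ratios of each class comparison among genes of at least 100 CPM, up to 4 genes per list, the 12 highest Fano factors and the 6 highest correlations with each of the 3 genes. Mitochondrial, ribosomal, hemoglobin, sex-linked and predicted genes were not eligible, nor were genes over 5 times higher in fibroblasts or outside the urothelial sum. Other genes named in the text, such as Hbb-bs, Ly6a, Fabp4, Rgs5, Plaur, Spp1, Scube2 and Pard6b, and further list members, were chosen after their values were seen. Some genes that this rule selects are not reported here. Gene positions came from GENCODE vM21 for 496 of 496 genes looked up, and promoters from a RefSeq table of GRCm38.p6.

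Alternatives varied the gene and mitochondrial limits, doublets, shared barcodes, the depth at which the rule was applied, the limits on Krt5, Upk3a and Krt20, the CPM minimum, the added counts and the scaling. Leaving out stromal-positive cells, 7-day cells with a UMI of Ly6a, Ndufa4l2 or Ptges, or genes of other cell types was added after seeing the data.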

Additional observations from a re-analysis of the deposited data

How the results depend on the processing

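Of 94 values recomputed under alternatives, 61 stayed within their interval or within 1.5 times the count given in the report, and 33 moved, as follows. The share of members among bladder mouse cells was 19.8% with at least 1000 genes per cell, 17.7% with mitochondrial UMIs under 10%, 31.0% when cells were thinned before the rule, 9.35% with Krt5 under 5 per 10000 and 16.7% with Upk3a at 20 per 10000 or more. Genes higher in members than in Krt5-high cells numbered 17 without doublets, 1 with thinning before the rule, 124 with Krt5-high cells cut at 20 per 10000 (8 cells), 8 at 100 CPM or more, 17 without stromal-positive cells and 7 without genes of other cell types. Genes lower in members numbered 5, 0, 225 and 1 under the first 4 of these, and 10 with Krt5 under 5 per 10000 or with CPM averaged over cells. Against Krt20-high cells the counts were 17 higher and 4 lower with all Krt20-positive cells, 1 and 16 at 100 CPM or more, and 6 and 235 with 5 added counts, and 19 lower with thinning before the rule. Genes differing in the 7-day library numbered 12 at 100 CPM or more, 28 with CPM averaged over cells and 4 without genes of other cell types. They numbered 23 without stromal-positive cells and 41 without 7-day cells with a UMI of Ly6a, Ndufa4l2 or Ptges. Without thinning, the shares with an Areg, Ivl and Krt23 UMI were 60.2%, 98.3% and 64.6%, and the Areg share was 41.0% with Krt5 under 5 per 10000. The settings on stromal-positive cells, on Ly6a, Ndufa4l2 or Ptges, and on genes of other cell types were chosen after seeing the data. For the 8-cell class and the CPM minimum, fewer cells or fewer genes entered by construction, and for the others the cause was not tested. No paired analysis was possible because each group has 1 library. Depth limits the rule, since thinning before it moved the values above, and 37 Krt20-high cells limit the precision of their ratios.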
